A study of Mus musculus with 92 samples.

Results

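The genes described here are Lama3, Lamb3, Itga2, Itga3, Itga6, Itgb1, Itgb4, Itgb6 and Cd44, matched by gene symbol among the 54532 genes of 4 mouse count tables. All 9 were in every table and passed the low-count filter in each of the 24 comparisons made. They encode chains of laminin-332, integrin subunits and the hyaluronan receptor CD44.

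The study sequenced poly(A)-selected RNA of 92 mouse libraries in 21 groups, to follow the loss of Eif4g2, which encodes the translation initiation factor eIF4G2, in the intestine. In mice with Rosa26(CreER), tamoxifen was given to Eif4g2(flox/flox) animals, called homozygous (4 crypt and 5 villus libraries), and to Eif4g2(flox/+) animals, called heterozygous (5 and 5), which were sampled at day 9. In mice with Vil1(CreER), tamoxifen was given at 100 mg/kg daily for 4 days and tissue is labelled 3 months: 3 crypt and 6 villus libraries were Eif4g2(flox/flox) and 4 and 4 were Eif4g2(flox/+). Rosa26 is active in most cell types and the Vil1 promoter drives CreER in intestinal epithelium. All controls in the tissue therefore carried CreER, received tamoxifen and had 1 floxed allele of Eif4g2. The ages of the mice are not given in the sources used here. Small intestinal organoids, adult epithelium grown in gel with EGF, Noggin and R-spondin (ENR), all carried Rosa26(CreER). The first set was 3 Eif4g2(flox/flox) lines with either DMSO or 0.5 µM 4-hydroxytamoxifen (4-OHT) for 24 h, collected at day 6. The second set, all with 4-OHT, had 4 Eif4g2(flox/flox), 4 Eif4g2(flox/+) and 4 Eif4g2(+/+) lines, the last called CreER-only. Fetal intestinal spheroids, in the same medium, were 6 Eif4g2(flox/flox) and 5 Eif4g2(flox/+) lines, each with DMSO and with 4-OHT. In the inhibitor series, 4 organoid lines (line 1 Eif4g2(+/+), lines 2 to 4 Eif4g2(flox/flox), no 4-OHT) received DMSO or A-485 at 3, 5 or 10 µM for 4 days. These genotypes are those of the labels, while the design text of the series calls the organoids wild-type. A-485 inhibits the histone acetyltransferases p300 and CBP.

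Laminin-332 is a secreted trimer of the basement membrane, the sheet on which epithelial cells rest. Integrins are receptors made of 1 α and 1 β subunit: ITGA3 with ITGB1 and ITGA6 with ITGB1 or ITGB4 bind laminins, ITGA2 with ITGB1 binds collagen, and ITGB6 pairs with ITGAV to bind fibronectin and latent TGF-β. The ITGA6 and ITGB4 pair anchors epithelium through hemidesmosomes. CD44 is enriched in intestinal crypts, where its gene is a known Wnt target.

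RefSeq promoter windows (GRCm38.p6) were found for 6 of the 9 genes. The 250 bases before the start are shown for Itga2 and Cd44, the 2 genes that fell with A-485, and for Itgb1, 1 of the 7 that rose, all chosen after those changes were seen. All are written 5′ to 3′ on the strand of the gene, and capitals mark a match to GGAATG, the core of the TEAD motif.
Itga2, chr13:114932101-114932350, minus strand: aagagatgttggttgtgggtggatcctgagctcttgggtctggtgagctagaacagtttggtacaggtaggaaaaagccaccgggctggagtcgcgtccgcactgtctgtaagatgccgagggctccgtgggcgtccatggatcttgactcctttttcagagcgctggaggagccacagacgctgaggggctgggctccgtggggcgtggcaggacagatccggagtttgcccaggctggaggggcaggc
Cd44, chr2:102901666-102901915, minus strand: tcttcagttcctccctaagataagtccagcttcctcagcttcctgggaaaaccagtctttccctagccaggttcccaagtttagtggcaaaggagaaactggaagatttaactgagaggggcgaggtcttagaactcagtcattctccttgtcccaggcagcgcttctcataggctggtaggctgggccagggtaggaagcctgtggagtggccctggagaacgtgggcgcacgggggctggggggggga
Itgb1, chr8:128685404-128685653, plus strand: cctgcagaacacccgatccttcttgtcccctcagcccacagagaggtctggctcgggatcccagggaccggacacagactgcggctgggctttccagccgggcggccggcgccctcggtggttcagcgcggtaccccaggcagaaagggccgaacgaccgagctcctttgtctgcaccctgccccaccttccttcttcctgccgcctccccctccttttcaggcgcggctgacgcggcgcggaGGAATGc
Motifs were searched on both strands of 300-base windows that run from 250 bases before to 50 after the start. The AP-1 site TGANTCA was present in 7.81% of all 32851 windows. The core of the TEAD motif, GGAATG, was present in 14.7% of them. The TATA box, searched as TATAAA, was present in 13.6%. The Itgb1 window held GGAATG at -7 to -2 from the start and neither of the others. No match to any of the 3 was in the windows of Itga2 and Cd44. Lamb3, Itga3 and Itgb6, which also rose, have 2 windows each: GGAATG was in 1 of those of Lamb3 and in none of Itga3 or Itgb6, and TGANTCA was in 1 of those of Itga3 only.

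In the coordinates of the tables, which match GRCm38 (mm10), the laminin genes are Lama3 (ENSMUSG00000024421, chr18:12333819-12583013, plus strand) and Lamb3 (ENSMUSG00000026639, chr1:193207699-193343878, plus). The α subunit genes are Itga2 (ENSMUSG00000015533, chr13:114833081-114932100, minus), Itga3 (ENSMUSG00000001507, chr11:95044474-95076801, minus) and Itga6 (ENSMUSG00000027111, chr2:71745616-71858416, plus). The β subunit genes are Itgb1 (ENSMUSG00000025809, chr8:128685654-128733200, plus), Itgb4 (ENSMUSG00000020758, chr11:115974709-116008412, plus) and Itgb6 (ENSMUSG00000026971, chr2:60598292-60722643, minus). Cd44 (ENSMUSG00000005087) lies at chr2:102811141-102901665, minus. Counts are over all exons of a gene. Exons of Lama3 share 197 bases with Gm29200 and those of Itgb4 share 537 bases with B230344G16Rik on the opposite strand, and whether counting used strand is not given in the sources used here.

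Total counts per library ran from 8652040 to 37611126, lowest in the inhibitor series. Levels below are CPM, the counts of a gene scaled to library size with edgeR's TMM factors. Eif4g2 followed the labels: in tissue it was at 48.3 to 98.3 CPM in Rosa26(CreER) homozygous and 318.7 to 384.0 CPM in heterozygous libraries, and at 134.0 to 239.8 against 357.1 to 488.0 CPM with Vil1(CreER). With 4-OHT it was at 144.0 to 147.7 CPM in the first organoid set (DMSO 704.9 to 793.6) and at 84.9 to 224.1 CPM in flox/flox spheroids (DMSO 706.3 to 1202). In the second set it was 220.1 to 269.8 CPM in flox/flox, 790.3 to 833.8 in flox/+ and 1257 to 1335 in CreER-only lines. In organoids, summed markers of leukocytes, fibroblasts, smooth muscle and endothelium stayed at or below 6.62 CPM. The labelled crypts and villi carried their markers: summed crypt markers were 7588 to 18313 CPM in heterozygous crypts and 40.6 to 356.4 CPM in heterozygous villi. A difference was called at a Benjamini-Hochberg adjusted p under 0.05 in edgeR's quasi-likelihood test over all genes. The standard error (SE) was derived as the absolute log2 change divided by the square root of the F statistic of that test. Replicates carry different animal or line labels. The labels of the 11 spheroid lines share 4 numbers, with 2 to 4 lines to a number and 2 of the numbers in both genotypes. What a shared number stands for is not given in the sources used here, and the p-values treat the lines as independent. Line 1 of the first organoid set has the same label as line 2 of the inhibitor series.

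In heterozygous mice the genes split between crypt and villus. Lama3, Lamb3, Itga3 and all 3 β subunits were higher in villi, and Itga2 and Cd44 were higher in crypts. Of 8 listed laminin chains outside the 9, all 6 tested with Rosa26(CreER) and all 5 tested with Vil1(CreER) were higher in crypts, Lama5 by 1.84 ± 0.21 and 2.46 ± 0.38 SE on the log2 scale. With Rosa26(CreER), 2 of the 9 were higher in crypts and 6 in villi, where 77.1% of all tested genes were called. With Vil1(CreER) it was 3 and 6, with 67.9% of all genes called. The median of the 9 log2 differences (crypt minus villus) was -1.76 and -1.11, against 0.09 and 0.08 over all tested genes. Since the tissue is bulk, fewer cells of a type and less RNA per cell cannot be told apart.

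Lama3, the laminin α3 chain, had the widest gap of the 9. It was at 6.77, 5.41, 4.57, 8.80 and 2.15 CPM in the Rosa26(CreER) heterozygous crypts and at 44.0, 112.8, 162.6, 107.0 and 139.6 CPM in the villi of the same mice. All villus libraries lay above all crypt libraries, a log2 difference of -4.38 ± 0.42 SE (20.8-fold, edgeR adjusted p = 1.8e-06). With Vil1(CreER) the difference was -4.89 ± 0.47. Lamb3, the laminin β3 chain, followed with -2.53 ± 0.19 and -1.47 ± 0.17.

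Among the α subunits, the collagen-binding Itga2 ran the opposite way to Itga3. Itga2 was at 50.4 to 61.4 CPM in Rosa26(CreER) heterozygous crypts and 9.30 to 12.8 CPM in villi, a log2 difference of 2.34 ± 0.10 SE (edgeR adjusted p = 2.48e-09), and 1.84 ± 0.11 with Vil1(CreER). Itga3, which partners ITGB1 in binding laminin, was at -2.14 ± 0.13 and -1.43 ± 0.15. Itga6 was even in Rosa26(CreER) mice, with a log2 difference of -0.06 ± 0.11 and overlapping groups (interval of 2 SE from -0.28 to 0.16), and 0.60 ± 0.15 higher in the Vil1(CreER) crypts. Of the β subunits, Itgb4 differed most, by -2.03 ± 0.16 and -1.46 ± 0.11. Itgb6 differed by -1.76 ± 0.18 and -1.11 ± 0.25, and Itgb1, the common partner, by -0.71 ± 0.09 and -0.36 ± 0.13. The Itgb1 difference with Vil1(CreER) was lost in 5 of the 8 fits that left out 1 library, at adjusted p up to 0.0955.

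Cd44 was at 61.9, 59.0, 55.9, 55.4 and 51.2 CPM in Rosa26(CreER) heterozygous crypts and 4.80, 12.8, 12.9, 9.73 and 10.4 CPM in villi. The groups were far apart, by 2.48 ± 0.22 on the log2 scale (5.59-fold, edgeR adjusted p = 5.87e-07), and by 3.11 ± 0.13 with Vil1(CreER). Per kilobase of exon, Itgb1 had the highest mean of the 9 in the Rosa26(CreER) heterozygous crypts (43.8 ± 0.775 SD CPM per kb, n = 5), followed by Itga6 (29.8 ± 2.66) and Itga3 (19.2 ± 2.04), and Lama3 the lowest (0.516 ± 0.231). In the villi of those mice Itga3 came first (84.4 ± 16.1), then Itgb1 (71.1 ± 10.1) and Itgb4 (55.4 ± 11.8), and Cd44 (1.49 ± 0.485) and Itga2 (1.51 ± 0.200) were last. Itga3 and Itgb1 in that order were within 1 SD of each other.

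**Figure D1:**
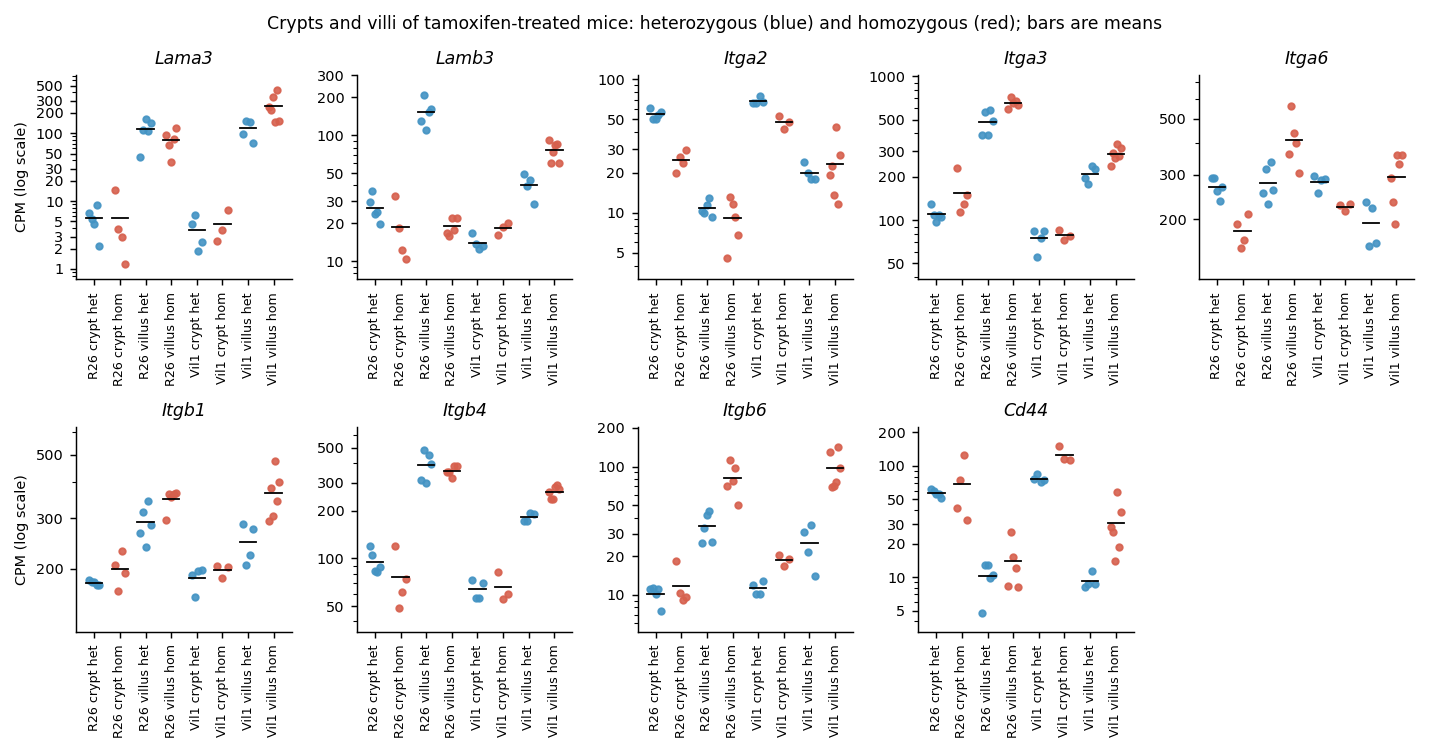
Levels in CPM (log axis) of the 9 genes in each crypt and villus library, with heterozygous groups in blue, homozygous groups in red and bars at the group means. Lamb3 in Rosa26-CreER (R26) villi drops from 109.3 to 209.6 CPM in heterozygous libraries to 15.7 to 22.2 CPM in homozygous ones, and rises in Vil1-CreER villi.

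Deletion of Eif4g2 moved Lamb3 in villi in opposite directions with the 2 CreER drivers. In Rosa26(CreER) villi at day 9, Lamb3 fell and Itga3, Itga6 and Itgb6 rose: 3 genes of the 9 were higher and 1 lower, with 33.2% of all tested genes called. Without heterozygous replicate 1 or 5, 2 of the 9 were called, and the shares of all genes in those fits are not given here. In Vil1(CreER) villi at 3 months, 8 of the 9 rose, all but Itga2, and none fell, with 42.5% of all genes called. The median log2 change of the 9 was 0.22 and 0.58, against -0.01 and 0.05 over all genes. In Rosa26(CreER) villi, 4 of the 8 leukocyte markers were called lower, with sums of 81.2 to 231.9 CPM in homozygous and 117.1 to 394.2 CPM in heterozygous libraries. Of the 6 fetal markers, 5 were tested and 1 was called higher, with sums of 131.3 to 563.8 against 32.2 to 43.9 CPM. The part of these shifts in the results was not tested.

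Lamb3 stood at 130.2, 209.6, 109.3, 152.5 and 161.7 CPM in Rosa26(CreER) heterozygous villi and at 16.8, 15.7, 22.2, 17.8 and 22 CPM in homozygous villi. The homozygous libraries lay in a narrow band well below the lowest control, a log2 change of -3.06 ± 0.18 SE (8.34-fold lower, edgeR adjusted p = 1.77e-06). In Vil1(CreER) villi Lamb3 was at 49.7, 39.6, 44.2 and 28.7 CPM in heterozygous libraries and from 60.2 through a median of 79.0 to 91.8 CPM in the 6 homozygous ones. Here every homozygous library lay above every control, by 0.89 ± 0.16 SE (1.85-fold higher, edgeR adjusted p = 0.000823). The difference between the 2 effects, in a comparison added after these values were seen, was -3.90 ± 0.26 (edgeR adjusted p = 8.76e-09). In that comparison 2 of the 9 genes were called, both lower, against 3.79% of all genes; the other, Itgb4 at -0.63 ± 0.18, was lost in 16 of 20 fits that left out 1 library. Of all genes called there, 57.5% were higher with TMM and 45.5% with DESeq2 size factors. Eif4g2 in homozygous villi was at 48.3 to 61.7 CPM with Rosa26(CreER), against 318.7 to 384.0 CPM in controls. With Vil1(CreER) it was at 134.0 to 182.1 CPM, against 357.1 to 474.8 CPM. The mice differed in driver, time, protocol and remaining Eif4g2 together, and these cannot be told apart. Ddx3y, on the Y chromosome, was above 1 CPM in 5 of 5 heterozygous and 2 of 5 homozygous villus libraries with Rosa26(CreER). With Vil1(CreER) it was above 1 CPM in 1 of 4 and 1 of 6. The part of this imbalance in the difference between the drivers was not tested.

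Lama3 was at 93.5, 67.5, 38.0, 82.5 and 119.8 CPM in Rosa26(CreER) homozygous villi, against 44.0 to 162.6 CPM in controls. Only replicate 3 lay below the control range, and the groups overlapped, with a log2 change of -0.55 ± 0.37 SE (edgeR adjusted p = 0.28). In Vil1(CreER) villi it ran from 144.8 through a median of 229.0 to 433.9 CPM in homozygous libraries and was at 97.7, 153.3, 145.9 and 71.8 CPM in heterozygous ones. The groups overlapped, and the rise was 1.10 ± 0.34 SE (edgeR adjusted p = 0.0205; up to 0.0629 with 1 library left out). The 2 effects did not differ in the test (-1.59 ± 0.53, edgeR adjusted p = 0.106). Lama5, the α chain of laminin-511, also differed between the drivers (-4.81 ± 0.55, edgeR adjusted p = 5.91e-05). In Vil1(CreER) villi it was at 1.12, 2.37, 1.29 and 1.94 CPM in heterozygous and 20.4 to 77.0 CPM in homozygous libraries, and in Rosa26(CreER) villi at 3.19 to 5.64 and 1.68 to 5.84 CPM.

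Of the α subunits, Itga3 was at 595.6, 722.2, 655.1, 670.8 and 625.8 CPM in Rosa26(CreER) homozygous villi and at 390.0, 563.8, 389.9, 582.2 and 485.1 CPM in controls. No control reached the lowest homozygous library, and the change was 0.39 ± 0.12 SE (edgeR adjusted p = 0.0315). It was 0.45 ± 0.13 in Vil1(CreER) villi. Itga6 rose by 0.52 ± 0.16 and 0.58 ± 0.19, with overlapping groups in both. The Rosa26(CreER) rises of Itga3 and Itga6 were lost in 4 and 2 of the 10 fits that left out 1 library, and Itga3 also with Y-linked transcripts as a covariate (adjusted p = 0.115). Ddx3y, on the Y chromosome, was above 1 CPM in 5 of 5 heterozygous and 2 of 5 homozygous villus libraries with Rosa26(CreER). Itga2 stayed low, at -0.30 ± 0.24 and 0.19 ± 0.31, neither called.

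Of the β subunits, Itgb6 rose most. It was at 25.3, 33.2, 42.1, 45.1 and 25.9 CPM in Rosa26(CreER) heterozygous villi and at 71.0, 111.8, 77.6, 97.2 and 50 CPM in homozygous villi, 1.19 ± 0.23 SE higher (edgeR adjusted p = 0.00288) without overlap. In Vil1(CreER) villi it was at 30.7, 21.7, 34.8 and 13.9 CPM in heterozygous libraries and from 69.4 through 86.4 to 140.8 CPM in homozygous ones, a rise of 1.92 ± 0.28 (3.79-fold, edgeR adjusted p = 0.000219). Its partner gene Itgav rose by 0.78 ± 0.24 and 0.89 ± 0.13. Itgb1 and Itgb4 rose in Vil1(CreER) villi, by 0.55 ± 0.15 and 0.52 ± 0.11, both without overlap. In Rosa26(CreER) villi they were at 0.22 ± 0.11 and -0.16 ± 0.13, neither called.

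Cd44, low in control villi, was at 8.09, 8.74, 11.4 and 8.63 CPM in Vil1(CreER) heterozygous villi and from 14.0 through 26.7 to 57.8 CPM in homozygous ones. All homozygous libraries were above all controls, by 1.70 ± 0.34 SE (3.24-fold, edgeR adjusted p = 0.00183). In Rosa26(CreER) villi it was at 8.25, 25.5, 15.2, 12.0 and 8.15 CPM against 4.80 to 12.9 CPM in controls, at 0.39 ± 0.35 (edgeR adjusted p = 0.417). Summed crypt markers overlapped between the groups: they were 66.4 to 347.5 CPM in Vil1(CreER) homozygous villi and 104.3 to 356.4 CPM in heterozygous villi. Summed leukocyte markers were lower in the homozygous villi, at 43.3 to 190.9 against 239.9 to 413.8 CPM.

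In crypts, Itga2 and Itga6 fell with both drivers, and Itgb6 and Cd44 rose with Vil1(CreER). With Rosa26(CreER), none of the 9 rose and 2 fell, with 20.2% of all genes called. Leaving out homozygous replicate 1 gave 4 calls, and the share of all genes in that fit is not given here. With Vil1(CreER), 2 rose and 2 fell, with 29.3% of all genes called. The medians were 0.10 and 0.09, against 0.04 and 0.01 over all genes.

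Itga2 was at 61.4, 50.4, 50.8, 54.0 and 56.8 CPM in Rosa26(CreER) heterozygous crypts and at 19.8, 26.2, 23.5 and 29.4 CPM in homozygous crypts. The groups were well apart, a log2 change of -1.09 ± 0.11 SE (2.13-fold lower, edgeR adjusted p = 0.000458). With Vil1(CreER) it was at 66.4, 67.0, 75.5 and 67.3 CPM in heterozygous and 52.9, 42.4 and 48.1 CPM in homozygous crypts, -0.53 ± 0.09 (edgeR adjusted p = 0.00436). Itga6 fell by 0.53 ± 0.10 and 0.33 ± 0.08 on the log2 scale. All 6 crypt markers also fell in both: their sum was 1437 to 6245 CPM in Rosa26(CreER) homozygous crypts against 13581 to 18313 in controls, and 842.7 to 1541 against 7588 to 10145 CPM with Vil1(CreER). Mitochondrial transcripts made up 13.7 to 25.2% of counts in Rosa26(CreER) homozygous crypts and 6.24 to 12.4% in controls, and 30.4 to 40.3% and 17.5 to 30.8% with Vil1(CreER). The part of these shifts in the results was not tested.

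Cd44 was at 76.2, 83.8, 71.4 and 74.7 CPM in Vil1(CreER) heterozygous crypts and at 151.0, 114.4 and 112.2 CPM in homozygous crypts, a rise of 0.72 ± 0.12 SE (edgeR adjusted p = 0.00271) without overlap. In these crypts 2 of the 8 leukocyte markers and 1 of the 5 fibroblast markers tested were called higher. Leukocyte sums were 388.5 to 548.4 CPM in homozygous and 61.8 to 585.1 CPM in heterozygous crypts, and fibroblast sums 11.3 to 35 against 2.77 to 23.7 CPM. In Rosa26(CreER) homozygous crypts Cd44 was spread over 41.7, 74.8, 125.5 and 32.4 CPM, on both sides of the 51.2 to 61.9 CPM of controls. Summed leukocyte markers in those 4 libraries were 582.5, 1067, 1696 and 75.5 CPM in the same order, and fibroblast markers 541.4, 511.4, 2005 and 34.3 CPM, against 105.5 to 378.5 and 21.5 to 833.9 CPM in controls. Cd44 is also expressed by those cells, and their part in its rise and its spread was not tested. In the library with the lowest sums, Itga2 was at 29.4 CPM, the highest of the 4 and below all controls. Summed crypt markers in that library were also the highest of the 4, at 6245 CPM, against 13581 to 18313 CPM in controls. Itgb6 rose with Vil1(CreER), from 12.0, 10.1, 10.1 and 12.8 CPM to 20.5, 16.9 and 19.1 CPM (0.74 ± 0.13 SE, edgeR adjusted p = 0.00339). All 4 Vil1(CreER) crypt calls were lost when villi were put in the same fit, at adjusted p from 0.0805 to 0.277. The Rosa26(CreER) fall of Itga6 was lost with Y-linked transcripts as a covariate (adjusted p = 0.108). Ddx3y was above 1 CPM in 5 of 5 heterozygous and 1 of 4 homozygous crypt libraries with that driver.

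The effect of genotype itself differed between villi and crypts for few of the 9. With Rosa26(CreER), 1 was called higher and 1 lower in villi minus crypts, with 11.5% of all genes called: Lamb3 at -2.49 ± 0.38 SE (edgeR adjusted p = 0.00081) and Itga6 at 1.15 ± 0.22 (edgeR adjusted p = 0.00448). With Vil1(CreER), 2 were called higher, with 15.5% of all genes called: Itga6 at 0.93 ± 0.26 (edgeR adjusted p = 0.0237) and Itgb6 at 1.21 ± 0.38 (edgeR adjusted p = 0.0404). With the animal as a block, Itgb6 was at adjusted p = 0.0708 and Cd44, at 1.01 ± 0.44 without the block, was called at 1.21 ± 0.34 (adjusted p = 0.047). Itgb6 was also lost in 7 of 17 fits that left out 1 library. Itga6 fell in crypts and rose in villi with both drivers.

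In organoids that lost Eif4g2, Itga3 and Itgb1 rose in each comparison, other integrin subunits in some or none, and Lamb3 in none. In the first set, Itga3, Itga6, Itgb1, Itgb4 and Itgb6 rose, 5 of the 9, and none fell, with 35.4% of all genes called and a median of 0.55 against 0.03 over all genes. With the line as a block, 8 of the 9 rose, adding Lama3, Itga2 and Cd44, with 43.3% of all genes called in that fit. With 1 library left out, 3 to 8 were called, 8 without the 4-OHT library of line 3. The shares of all genes called in those fits are not given here. In the second set, against flox/+ lines, Lama3, Itga3, Itgb1 and Itgb6 rose and Lamb3 fell (4 and 1 of 9; 46.8% of all genes called). Against CreER-only lines, Itga3, Itgb1 and Cd44 rose and Lamb3 fell (3 and 1 of 9; 45.3% of all genes called). These 2 comparisons share the flox/flox libraries, and in both the 9 were called about as often as all genes. Summed crypt markers were 582.9 to 817.3 CPM with 4-OHT and 2117 to 2494 CPM with DMSO in the first set, and 2545 to 3643 CPM in flox/flox, 8649 to 10089 in flox/+ and 8729 to 10552 CPM in CreER-only lines. In the first set, 5 of the 6 villus enterocyte markers were also called lower, with sums of 4534 to 6806 against 10260 to 13764 CPM, and 4 of the 6 fetal markers higher, with sums of 616.2 to 1296 against 444.2 to 684.1 CPM. The part of these shifts in the results was not tested.

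Lama3 was at 13.5, 14.7 and 5.23 CPM with DMSO and at 27.6, 33.4 and 7.57 CPM with 4-OHT in lines 1 to 3 of the first set. It was higher with 4-OHT in each line, but line 3 was low in both, so the groups overlapped: 1.03 ± 0.57 SE (edgeR adjusted p = 0.202), and 0.95 ± 0.15 with the line as a block (edgeR adjusted p = 0.00329). In the second set it was at 7.42, 7.22, 6.36 and 9.13 CPM in flox/flox lines, 3.57, 1.99, 1.98 and 2.41 CPM in flox/+ lines and 8.50, 5.73, 6.34 and 2.47 CPM in CreER-only lines. Flox/flox lines were above all flox/+ lines (1.60 ± 0.30, edgeR adjusted p = 0.000617) and mixed with CreER-only lines (0.38 ± 0.29, edgeR adjusted p = 0.297).

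Lamb3 was at 141.3, 146.1 and 124.8 CPM with DMSO and 165.2, 154.3 and 69.2 CPM with 4-OHT in the first set, up in lines 1 and 2 and down in line 3, at -0.09 ± 0.29 SE (edgeR adjusted p = 0.851). In the second set it was at 99.4, 117.1, 112.3 and 98.5 CPM in flox/flox lines, 122.7 to 130.1 CPM in flox/+ lines and 142.5 to 145.7 CPM in CreER-only lines. The 3 groups did not overlap, and flox/flox was lower by -0.24 ± 0.06 and -0.43 ± 0.06 (edgeR adjusted p = 0.00333 and 3.13e-05), a small change beside the one in the villi of the Rosa26 mice.

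Of the α subunits, Itga3 rose in each of these comparisons. It was at 295.3 to 307.1 CPM with DMSO and 456.4, 449.8 and 418.2 CPM with 4-OHT in the first set (0.55 ± 0.08 SE, edgeR adjusted p = 0.00204). In the second set it was at 209.2, 212.1, 249.0 and 265.2 CPM in flox/flox lines, 110.2 to 164.0 CPM in flox/+ and 129.8 to 155.0 CPM in CreER-only lines, 0.85 ± 0.12 and 0.72 ± 0.12 higher. No other group reached the flox/flox lines. Itga6 rose in the first set (0.49 ± 0.10) and was at -0.03 ± 0.06 and -0.12 ± 0.06 in the second, neither called. Itga2 was called in neither set, at 0.40 ± 0.16, -0.08 ± 0.08 and -0.08 ± 0.08, but with the line as a block it was 0.38 ± 0.10 (edgeR adjusted p = 0.0256) in the first.

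Of the β subunits, Itgb1 was at 327.2, 319.1 and 270.1 CPM with DMSO and 501.6, 490.1 and 374.3 CPM with 4-OHT (0.58 ± 0.14 SE, edgeR adjusted p = 0.0156). Its flox/flox lines in the second set, at 505.7 to 586.0 CPM, lay above flox/+ lines at 398.7 to 428.9 and CreER-only lines at 427.4 to 448.3 CPM. Itgb6 rose by 1.06 ± 0.23 in the first set and by 0.52 ± 0.15 against flox/+ lines, and was 0.36 ± 0.15 against CreER-only lines (edgeR adjusted p = 0.0644). Itgb4 rose by 0.58 ± 0.16 in the first set and was 0.29 ± 0.13 and 0.05 ± 0.13 in the second, neither called. In the first set, the rise of Itgb1 was lost in 3 and that of Itgb4 in 4 of the 6 fits that left out 1 library.

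Cd44 separated CreER-only lines from the rest of the second set. It was at 37.9, 43.6, 37.6 and 117.7 CPM in CreER-only lines, 147.0, 183.0, 183.6 and 174.2 CPM in flox/+ lines and 166.7, 181.8, 158.2 and 142.4 CPM in flox/flox lines. Flox/flox and flox/+ lines overlapped (-0.08 ± 0.34 SE, edgeR adjusted p = 0.859), and flox/flox was above CreER-only by 1.46 ± 0.35 (edgeR adjusted p = 0.00674). Flox/+ minus CreER-only was as large, 1.55 ± 0.35, and its groups did not overlap, at an edgeR adjusted p of 0.166. In that comparison none of the 9 was called by edgeR, with 0.113% of all genes called. At an unadjusted p under 0.05, 3 of the 9 passed there, with 1481 of all 14220 genes tested. The DESeq2 Wald test called 2 of the 9, with 156 of all genes. In the first set Cd44 was at 119.3, 110.6 and 89.3 CPM with DMSO and 167.5, 133.9 and 120.7 CPM with 4-OHT, higher in each line. There it was 0.40 ± 0.15 (edgeR adjusted p = 0.0789), and called with the line as a block (0.40 ± 0.08, edgeR adjusted p = 0.00717).

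**Figure D2:**
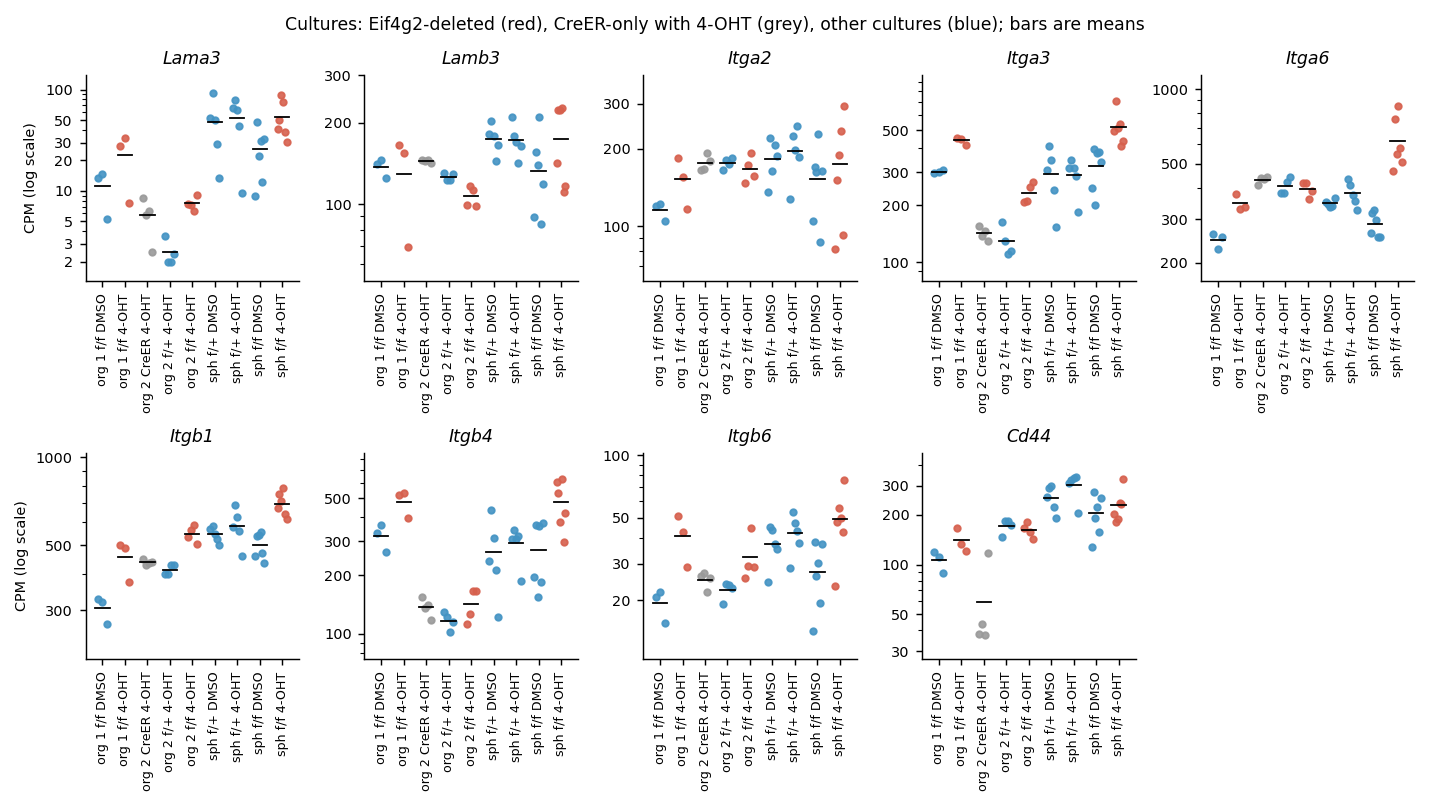
Levels in CPM (log axis) of the 9 genes in each organoid (org) and spheroid (sph) library, where f/f is flox/flox and f/+ is flox/+; red marks flox/flox cultures with 4-OHT, grey CreER-only lines and bars the group means. Itga3 in red lies above its controls in both organoid sets and in spheroids, and Cd44 in 3 of 4 CreER-only lines lies at 37.6 to 43.6 CPM.

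In 4 of the 11 spheroid lines summed crypt markers with DMSO were high for fetal spheroids: 3487 and 5858 CPM in flox/flox lines 1 and 3 and 4890 and 11312 CPM in flox/+ lines 4 and 5, against 254.9 to 915.3 CPM in the other 7. Their summed fetal markers were 411.8, 780.8, 1380 and 786.8 CPM in the same order, against 1158 to 4224 CPM in the other 7; flox/+ line 4 lay inside that range and the other 3 below it. Both flox/flox lines set apart here share 1 number in their labels and are the only lines with it. Results are given with and, as an alternative chosen after seeing the data, without these 4 lines.

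In flox/flox spheroids, 4-OHT raised integrin subunits, Itga6 the most. Itga3, Itga6, Itgb1, Itgb4 and Itgb6 rose, 5 of the 9, and none fell, with 19.1% of all genes called and a median of 0.68 against -0.02. This fit did not pair the lines, though each line received both treatments. A fit with the line as a block called Lama3 and Lamb3 too, and its share of all genes is not given here. In fits without the block, leaving out the 4 lines left Itga6 and Itgb1 called, with 17.7% of all genes. Leaving out DMSO replicate 1 alone left 2 of the 9, and the share of all genes there is not given here. Summed villus enterocyte markers had a median of 154.4 CPM (18.1 to 5934) with 4-OHT and 3097 CPM (736.3 to 7763) with DMSO. For fetal markers the medians were 2375 and 1575 CPM, and for crypt markers 382.2 and 664.3 CPM, with overlapping ranges in all 3 lists. The part of these shifts in the results was not tested. In flox/+ spheroids none of the 9 was called by edgeR, nor at an unadjusted p under 0.05, and 0% of all genes were called. There 15 genes had an unadjusted p under 0.05 and DESeq2 called 0. That fit did not pair the lines, whose paired deviations correlated at 0.626 to 0.857. It did not call Eif4g2 either, at 334.7 to 646.4 CPM with 4-OHT and 668.9 to 1163 CPM with DMSO. An effect of 4-OHT in these lines may thus have been missed by that fit. With the line as a block, none of the 9 was called either. With DMSO, flox/flox against flox/+ lines likewise gave none of the 9, also at an unadjusted p under 0.05, and 0% of all genes, with 1084 genes at an unadjusted p under 0.05 and 9 called by DESeq2. With 4-OHT, flox/flox lines had 2 of the 9 higher than flox/+ lines, Itga3 and Itga6, with 10.5% of all genes called. In that comparison 3 of the 5 fibroblast markers tested were called lower, with sums of 0 to 5.87 CPM in flox/flox and 2.66 to 171.8 CPM in flox/+ lines, and their part in the result was not tested.

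Itga6 ran from 253.4 through a median of 280.5 to 327.6 CPM with DMSO and from 468.2 through 563.1 to 856.8 CPM with 4-OHT in flox/flox spheroids. Every 4-OHT library lay above every DMSO library, by 1.12 ± 0.14 SE (2.17-fold, edgeR adjusted p = 1.91e-05; 1.26 ± 0.18 without the 4 lines). In flox/+ spheroids it was at 351.1, 346.1, 334.8, 339.3 and 363.0 CPM with DMSO and 435.5, 410.2, 374.4, 355.9 and 327.7 CPM with 4-OHT. The 2 effects differed by 0.98 ± 0.20 (edgeR adjusted p = 0.0145; 1.01 ± 0.27, adjusted p = 0.0851, without the 4 lines). Itga6 was the only one of the 9 called in that difference, with 1.62% of all genes called. With the line as a block 4 of the 9 were, adding Itga3 at 0.66 ± 0.20, Itgb1 at 0.39 ± 0.10 and Itgb6 at 0.66 ± 0.15 (edgeR adjusted p = 0.0338, 0.0134 and 0.00874), with 18.3% of all genes called in that fit.

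Itga3 ran from 200.7 to 397.2 CPM with DMSO and from 412.9 to 715.4 CPM with 4-OHT in flox/flox spheroids, without overlap (0.68 ± 0.22 SE, edgeR adjusted p = 0.0351; 0.48 ± 0.18, adjusted p = 0.0853, without the 4 lines). Itgb1 ran from 434.0 to 556.4 and from 614.0 to 785.8 CPM, also without overlap (0.47 ± 0.11, edgeR adjusted p = 0.00423; 0.47 ± 0.15, adjusted p = 0.0447, without the 4 lines). Itgb4 and Itgb6 rose by 0.81 ± 0.28 and 0.83 ± 0.25 with overlapping groups. Without the 4 lines they were at 0.54 ± 0.27 and 0.77 ± 0.28 (adjusted p = 0.216 and 0.0754), and the Itgb4 call was lost in 14 of 22 fits that left out 1 library. Lama3, at 1.06 ± 0.48, and Lamb3, at 0.39 ± 0.22, were called only with the line as a block, at 1.17 ± 0.36 and 0.39 ± 0.11 (edgeR adjusted p = 0.0392 and 0.03). Itga2 (0.19 ± 0.28) and Cd44 (0.15 ± 0.19) were not called in either fit.

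Fetal spheroids had higher levels of most of the 9 genes, Lama3 above all, than adult organoids of the same genotype and treatment. In flox/+ lines with 4-OHT, 7 of the 9 were higher in spheroids than in the second organoid set, all but Itga2 and Itga6, with 47.9% of all genes called; without the 4 lines 7 of the 9 were called, with 65.3% of all genes. Summed fibroblast markers were 2.66 to 171.8 CPM in these spheroids and 0 to 0.462 CPM in the organoids, where 4 of the 6 were at 0 in every library, and all 3 that were tested were called higher. All 6 fetal markers were higher, with sums of 1200 to 4209 against 193.5 to 294.6 CPM. Of the 6 crypt and 6 villus enterocyte markers, 2 each were lower, with sums of 368.4 to 7474 against 8649 to 10089 CPM and 91.3 to 3381 against 3885 to 8237 CPM. The part of these shifts in the results was not tested. Lama3 was at 65.9, 79.1, 62.7, 43.6 and 9.47 CPM in spheroids and at 1.98 to 3.57 CPM in organoids, a log2 difference of 4.51 ± 0.60 SE (edgeR adjusted p = 0.000378), and 4.97 ± 0.19 without flox/+ lines 4 and 5. The lowest spheroid library was line 5. Lama5 differed by 3.40 ± 0.26. Itgb4 differed by 1.44 ± 0.17, Itga3 by 1.28 ± 0.19, Itgb6 by 1.03 ± 0.18, Cd44 by 0.94 ± 0.16, Itgb1 by 0.61 ± 0.12 and Lamb3 by 0.57 ± 0.11. Levels of the 2 sets were scaled separately and the test used their counts in 1 fit.

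A-485 raised 7 of the 9 genes in organoids and lowered Itga2 and Cd44. At 3 µM, Lama3, Itgb1 and Itgb4 rose and Cd44 fell (3 and 1 of 9; 19.2% of all genes called). At 5 µM and at 10 µM, 7 rose and 2 fell, all 9, with 49.6% and 62% of all genes called. The median log2 change of the 9 was 0.35, 1.05 and 1.70, against 0.00, -0.02 and -0.05 over all genes. These 3 comparisons share the DMSO libraries. Between doses, 4 rose and 1 fell from 3 to 5 µM (24.5% of all genes called), and 4 rose and 2 fell from 5 to 10 µM (18.9% of all genes called). With the line as a block, since the same 4 lines received each dose, 7 of the 9 were called at 3 µM, 8 from 3 to 5 µM and 8 from 5 to 10 µM, with 26.3%, 31.2% and 23.5% of all genes called.

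Lama3 was low throughout. It was at 3.00, 3.84, 2.18 and 1.63 CPM with DMSO, 10.3, 12.3, 5.11 and 4.51 CPM at 3 µM, 12.2, 13.5, 10.9 and 12.3 CPM at 5 µM and 8.39, 10.8, 8.15 and 7.76 CPM at 10 µM in lines 1 to 4. It rose by 1.60 ± 0.33, 2.20 ± 0.33 and 1.72 ± 0.33 SE over DMSO (edgeR adjusted p = 0.00248, 3.07e-05 and 0.000198). Unlike the other 6 genes that rose, it was lower at 10 than at 5 µM in every line, without overlap, though that step did not pass the test (-0.48 ± 0.31, edgeR adjusted p = 0.335).

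Lamb3 was at 153.7, 166.8, 176.0 and 165.9 CPM with DMSO, 317.0, 251.6, 216.2 and 165.0 CPM at 3 µM, 477.4, 431.4, 361.2 and 299.7 CPM at 5 µM and 563.3, 678.1, 567.1 and 343.8 CPM at 10 µM. It rose at each step in lines 1 to 3, and line 4 was flat at 3 µM. The change was 0.52 ± 0.20 SE at 3 µM (edgeR adjusted p = 0.0778; called with the line as a block at 0.47 ± 0.14, adjusted p = 0.022), 1.25 ± 0.20 at 5 µM and 1.70 ± 0.20 at 10 µM (edgeR adjusted p = 6.23e-05 and 1.08e-06). Per kilobase of exon, mean levels at 10 µM were 81.4 CPM for Lamb3 and 0.817 CPM for Lama3.

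Of the α subunits, Itga2 fell. It was at 168.2, 146.0, 146.8 and 164.5 CPM with DMSO, 109.1, 128.2, 106.3 and 144.0 CPM at 3 µM, 102.9, 86.5, 77.5 and 106.2 CPM at 5 µM and 58.1, 66.8, 56.4 and 83.4 CPM at 10 µM. Each dose lay below the one before in every line. The changes were -0.36 ± 0.14 SE at 3 µM (edgeR adjusted p = 0.0786; -0.37 ± 0.10, adjusted p = 0.0113, with the line as a block), -0.75 ± 0.14 at 5 µM and -1.24 ± 0.14 at 10 µM (edgeR adjusted p = 0.000243 and 5.04e-07). Itga3 rose to 559.3, 820.8, 741.0 and 524.9 CPM at 10 µM from 170.4, 189.9, 177.1 and 159.6 CPM, by 1.92 ± 0.15 (3.80-fold, edgeR adjusted p = 2.99e-09). It was at 0.35 ± 0.14 at 3 µM (edgeR adjusted p = 0.0881; called with the line as a block, adjusted p = 0.0214). Itga6 moved least of the 7 that rose, by 0.42 ± 0.10 at 5 µM and 0.87 ± 0.10 at 10 µM.

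Of the β subunits, Itgb4 rose most, and at 5 and 10 µM more than any other of the 9. It was at 160.1, 176.1, 158.1 and 159.0 CPM with DMSO, 595.4, 496.0, 371.2 and 310.9 CPM at 3 µM, 1432, 1385, 1194 and 1198 CPM at 5 µM and 1861, 2321, 2087 and 1559 CPM at 10 µM. No 2 doses overlapped. The rise was 1.44 ± 0.17, 3.00 ± 0.17 and 3.58 ± 0.18 SE (2.72-, 7.97- and 12.0-fold; edgeR adjusted p = 8.6e-06, 6.17e-10 and 2.74e-11). Itgb1 rose from 370.2 to 423.5 CPM with DMSO to 1336 to 1437 CPM at 10 µM, by 1.81 ± 0.11 (edgeR adjusted p = 2.76e-10), also with no overlap between doses. Itgb6 was at 20.1, 18.4, 15.9 and 19.3 CPM with DMSO and 33.6, 45.1, 39.1 and 52.2 CPM at 10 µM, a rise of 1.20 ± 0.18 (edgeR adjusted p = 1.68e-05). At 3 µM it was at 0.27 ± 0.18 (edgeR adjusted p = 0.335). Its partner gene Itgav rose by 2.90 ± 0.17 at 10 µM.

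Cd44 was at 188.7, 150.6, 156.6 and 151.6 CPM with DMSO, 108.5, 121.7, 110.3 and 107.6 CPM at 3 µM, 52.2, 36.6, 36.9 and 40.8 CPM at 5 µM and 34.8, 26.3, 26.7 and 30.9 CPM at 10 µM. It fell with dose in every line and the doses did not overlap: -0.53 ± 0.13, -1.96 ± 0.13 and -2.45 ± 0.13 SE (edgeR adjusted p = 0.00636, 3.16e-09 and 6.98e-11). Line 1, labelled Eif4g2(+/+), was the highest of the 4 in 3 of the 4 groups. Summed crypt markers were 7693 to 9625 CPM with DMSO, 1296 to 2318 at 3 µM, 400.8 to 542.9 at 5 µM and 157.8 to 223.5 CPM at 10 µM. Summed villus enterocyte markers were 5069 to 10194 CPM with DMSO and 240.0 to 440.8 CPM at 10 µM, summed fetal markers were 149.2 to 211.9 and 823.8 to 1036 CPM, and squamous markers were at or below 2.64 CPM throughout. The part of these shifts in the results was not tested.

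**Figure D3:**
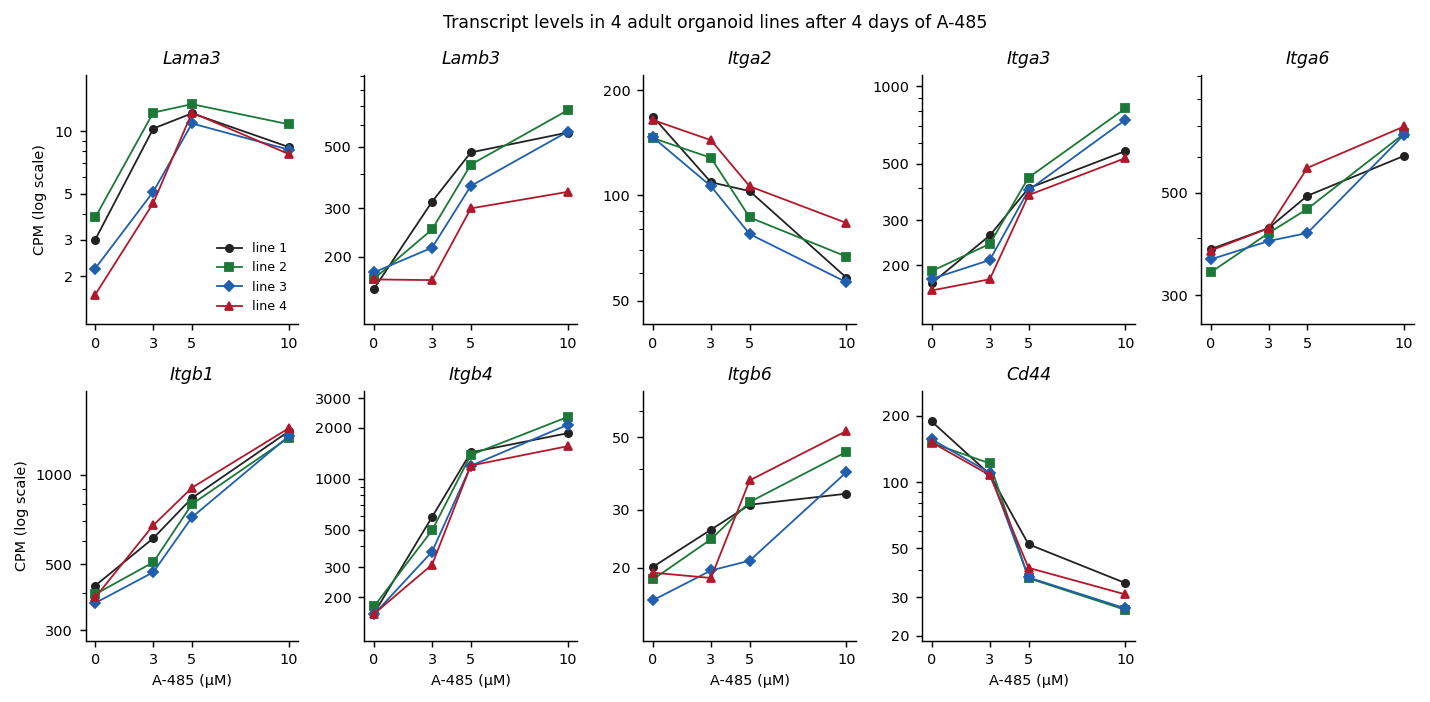
Levels in CPM (log axis) of the 9 genes in 4 organoid lines against the concentration of A-485 (0 is DMSO), 1 line of the plot per organoid line. Itgb4 climbs from 158.1 to 176.1 CPM to 1559 to 2321 CPM, Cd44 falls from 150.6 to 188.7 CPM to 26.3 to 34.8 CPM, and Lama3 turns down after 5 µM.

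**Figure D4:**
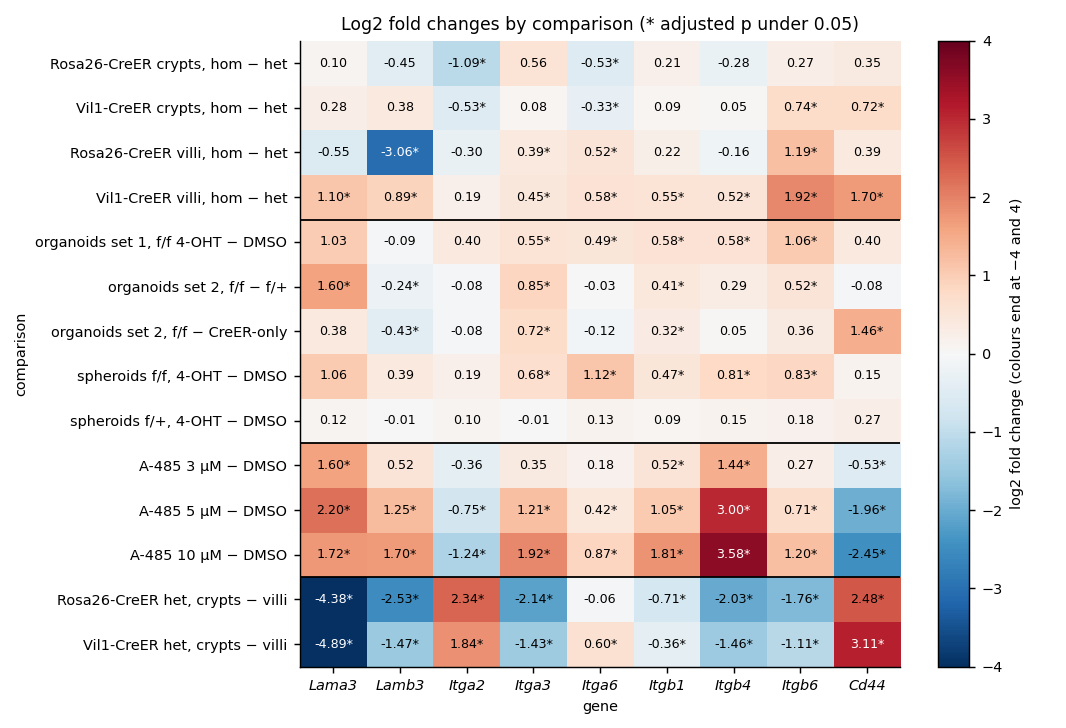
Log2 fold changes (colour and number) of the 9 genes, columns, in 14 comparisons, rows, where hom is homozygous, het heterozygous, f/f flox/flox and f/+ flox/+; an asterisk marks an adjusted p under 0.05 in edgeR. All 9 genes have an asterisk at 5 and 10 µM of A-485, and Lamb3 is at -3.06 in villi of Rosa26-CreER mice, against 0.89 in those of Vil1-CreER mice.

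Other genes of these pathways, from lists of 91 genes, are given for the first organoid set and for 10 µM of A-485, where 35.4% and 62% of all genes were called and the medians over all genes were 0.03 and -0.05. Of the other laminin chains, 4 of 8 were tested in each. In the first set 2 rose and none fell: Lamc1 (1.45 ± 0.09 SE) and Lama5 (1.35 ± 0.28). At 10 µM, 3 rose and 1 fell, with Lamb2 at 3.19 ± 0.17 and Lamc1 at 1.59 ± 0.10. The median was 1.03 and 2.26. Of the other integrin subunits, 1 of 10 tested rose and 2 fell in the first set, and 2 of 6 rose and 2 fell at 10 µM, where Itga5, a fibronectin receptor subunit, rose by 1.81 ± 0.29 and Itga1, a collagen receptor subunit, fell by 3.72 ± 0.27 on the log2 scale.

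Of genes of the hemidesmosome and basement membrane, 7 of 15 tested rose and 4 fell in the first set, and 7 of 14 rose and 6 fell at 10 µM. Npnt, which encodes the integrin ligand nephronectin, rose in both (2.56 ± 0.13 and 3.59 ± 0.23 SE). Hspg2, the perlecan gene, fell at 10 µM from 112.2 ± 15.3 to 3.75 ± 1.68 CPM (SD, n = 4), by 4.87 ± 0.30 on the log2 scale. Of the integrin adhesion complex, 10 of 20 rose and 2 fell, and 11 of 21 rose and 5 fell. Tns4, of the tensin family, fell at 10 µM from 31.5 ± 8.49 to 0.653 ± 0.477 CPM (SD, n = 4). Medians of the 2 lists were 0.26 and 0.28 in the first set and 0.77 and 0.28 at 10 µM.

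Of CD44 ligands, hyaluronan enzymes and partners, 1 of 12 rose and 1 fell in the first set, and 4 of 10 rose and 2 fell at 10 µM. Msn, which encodes moesin, a linker of CD44 to actin, rose from 7.87 ± 3.16 to 31.5 ± 11.4 CPM (SD, n = 3) and from 0.609 ± 0.0634 to 15.7 ± 4.02 CPM (SD, n = 4). Rdx, of the same family, had no read in any DMSO library of the inhibitor series and was at 2.68 ± 1.62 CPM (SD, n = 4) at 10 µM. Of fibronectin-type ligands and latent TGF-β genes, 3 of 7 rose and 1 fell, and 2 of 4 rose and 1 fell. Tgfb1 rose in both, by 1.87 ± 0.47 and 1.44 ± 0.33 SE.

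Across the 92 libraries, centred within 8 sets of libraries, the log2 level of Itgb4 was most like that of Tgfa (Pearson r = 0.90, of 11317 genes), Itgb1 most like Ptpra (0.90) and Itga3 most like Cdipt (0.91). Itga2 was most like Sox9 (0.75), Itga6 like Twsg1 (0.75), Lama3 like Gprc5a (0.72), Cd44 like Noc2l (0.69) and Lamb3 like Npdc1 (0.67). Among the 9 themselves, Itga3, Itgb1 and Itgb4 had r of 0.80 to 0.83 with each other. Cd44 and Itga2 had r = 0.45 and Cd44 and Itgb4 -0.42. These values describe libraries that share tables and treatments and carry no test.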

How the data were processed

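Poly(A)-selected, strand-marked RNA libraries of 92 samples in 21 groups were analysed from 4 tables of raw counts per gene, deposited by the authors and not normalized. The submitters' processing notes name HISAT2 2.0.5 and GRCm38 (mm10); the counting tool and its strand setting are not given in the sources used here. Columns were mapped to samples by their labels and 54532 genes were present in each table. Differences were tested with edgeR 4.0.16 (R 4.3.3; filterByExpr, TMM, glmQLFit and glmQLFTest, Benjamini-Hochberg adjustment over all genes tested), after testing on simulated data. Total counts per library, 8652040 to 37611126, limit the precision of genes at a few CPM, such as Lama3 in organoids. The 9 genes, the lists and the named genes (from each list at most 4 called genes with the largest change at 10 µM A-485 and in the first organoid set) were chosen with earlier results of these data known. Alternatives were DESeq2 1.42.0, its size factors, no low-count filter, other groups in the fit, a replicate block and leaving out each library. Pairing comes from the labels, which give the same organoid lines, spheroid lines or animals in 2 groups: correlations of paired deviations were 0.318 to 0.501 in the first organoid set, 0.385 to 0.783 in flox/flox and 0.626 to 0.857 in flox/+ spheroids, 0.0556 to 0.352 in the A-485 series and -0.00247 to 0.296 between crypts and villi. Promoters are from RefSeq. Some genes of the lists are not reported here and are left out of their counts.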

Additional observations from a re-analysis of the deposited data

Results flagged for a closer look

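In 8 of the 162 sets of libraries of 1 gene and group that were examined, 1 library lay far from the others, about as many as chance flags at 1 in 20. Cd44 in CreER-only organoids had 1 line at 117.7 CPM, with the next at 43.6 CPM. In flox/+ spheroids with 4-OHT, line 5 was lowest for Cd44 (205.2 CPM, next 313.5) and for Itgb4 (187.9 CPM, next 306.7). In the DMSO libraries of the A-485 series, Cd44 was highest in line 1 (188.7 CPM, next 156.6) and Itgb4 in line 2 (176.1 CPM, next 160.1). Itga2 was at 75.5 CPM in 1 Vil1(CreER) heterozygous crypt library (next 67.3). Itgb1 was at 295.2 CPM in 1 Rosa26(CreER) homozygous villus library (next 355.3), and Itgb6 at 18.2 CPM in 1 Rosa26(CreER) homozygous crypt library (next 10.3).

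The effect of genotype differed by test between villi and crypts for Lamb3 (-2.49) and Itga6 (1.15) with Rosa26(CreER), and for Itga6 (0.93) and Itgb6 (1.21) with Vil1(CreER). The effect of 4-OHT on Itga6 differed between flox/flox and flox/+ spheroids (0.98). The effect in villi differed between the drivers for Lamb3 (-3.90) and Itgb4 (-0.63).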

How the results depend on the processing

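Of 880 values recomputed under other settings, 835 kept their direction and side of the threshold, 29 lost a call, 15 gained one and 1 turned: Itga6 in Rosa26(CreER) heterozygous crypts against villi was 0.04 with no low-count filter. Counts of the 9 genes called moved by over 1.5 times as follows, and the cause was not tested. With the replicate block over shared lines, 8 were called in the first organoid set, 7 at 3 µM of A-485, 8 from 3 to 5 µM and 4 in the difference between spheroid genotypes. The shares of all genes called in those fits were 43.3%, 26.3%, 31.2% and 18.3%, in the same order. A replicate block by number alone, with no shared line, left 1 between spheroid genotypes with 4-OHT, where Itga6 was 0.71 (edgeR adjusted p = 0.105). Such a block gave 0.44 for Itga6 in Vil1(CreER) villi (edgeR adjusted p = 0.121). No other count of the 9 genes moved by over 1.5 times with the block. With DESeq2's Wald test, 2 were called in flox/+ against CreER-only organoids, with 156 of all genes. That test called 4 in the Rosa26(CreER) difference between villi and crypts, with 2884 of all genes. With no low-count filter, 1 was called in the Vil1(CreER) difference between villi and crypts and 1 between the drivers. With more groups in the fit, 0 were called in Vil1(CreER) crypts, and with only the 2 groups compared, 3 in flox/flox spheroids. For the block by number, no filter, more groups and only the 2 groups, the shares of all genes called are not given here. A change particular to the 9 can thus not be told from a change in all calls. Without the 4 spheroid lines, a choice made after seeing the data, 2 were called in flox/flox spheroids, 1 between genotypes with 4-OHT and 0 in the difference of their effects. Over all genes, 2653, 1064 and 212 were called in the same order. The comparison of drivers was also added after seeing the data.

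With 1 library left out, 2045 of 2166 values kept direction and side, 98 lost a call, 13 gained one and 10 turned. The shares of all genes called in these fits are not given here, so the counts below cannot be set against them. Counts of the 9 genes ranged from 2 to 4 in Rosa26(CreER) crypts (4 without homozygous replicate 1) and from 2 to 4 in villi (2 without heterozygous replicate 1 or 5). In the first organoid set they ranged from 3 (without 4-OHT replicate 1 or 2 or DMSO replicate 3) to 8 (without 4-OHT replicate 3). In flox/+ against CreER-only organoids they ranged from 0 to 2 (2 without CreER-only replicate 4). In flox/flox spheroids they ranged from 2 (without DMSO replicate 1) to 5, and were 3 without DMSO replicate 3 or 5 or 4-OHT replicate 2, 4 or 6. Between spheroid genotypes with 4-OHT they ranged from 1 (without flox/flox replicate 2 or flox/+ replicate 4 or 5) to 2. At 3 µM they ranged from 4 to 7 (7 without 3 µM replicate 4). The difference between villi and crypts ranged from 2 to 4 with Rosa26(CreER) (4 without homozygous villus replicate 5) and from 0 to 3 with Vil1(CreER) (0 without homozygous crypt replicate 2). Between the drivers the count ranged from 1 to 3. Values that turned, none of them called, ranged from -0.12 to 0.31 for Itga2 in Vil1(CreER) villi and from -0.09 to 0.05 for Itga6 in Rosa26(CreER) heterozygous crypts against villi. Lamb3 ranged from -0.29 to 0.22 in the first organoid set. In the second set, Itga6 ranged from -0.06 to 0.01 against flox/+ lines and Itgb4 from -0.03 to 0.15 against CreER-only lines. Itga2 ranged from -0.04 to 0.33 in flox/flox spheroids.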
